A study of Mus musculus with 36 samples.

Results

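Peritoneal macrophages were compared with circulating monocytes at the advanced stage of atherosclerosis, on 8 of the 36 RNA sequencing libraries of a mouse study. The 8 libraries were taken by their labels, 4 of macrophages from peritoneal lavage and 4 of monocytes, which the labels' protocols describe as taken out of blood and spleen once red cells had been lysed. The whole study covered 3 cell populations (aortic macrophages, peritoneal macrophages and monocytes) at 3 stages of disease, with 4 libraries in each of the 9 groups. All mice, those behind both groups here included, were Apoe-deficient: they lack apolipoprotein E, the ligand that clears cholesterol-rich lipoproteins, and develop atheroma on a high cholesterol diet. Both groups of the comparison had received that diet for 6 months. The early stage, used below for one comparison, stood for 1 month of the diet, and baseline mice had eaten chow. Cells were sorted by flow cytometry into lysis buffer, and the label gives the RNA as polyadenylated. Whether the libraries of a group stem from separate mice is not stated, so p-values measure the spread between libraries only, and part of that spread may be technical.

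Resident macrophages of the peritoneal cavity are large cells that depend on the transcription factor GATA6 and on retinoic acid from the surrounding tissue, clear dead cells and can clot onto injured surfaces. A smaller, monocyte-derived population with MHC class II lies beside them. Monocytes circulate as a classical type, which carries Ly6C and the chemokine receptor CCR2 and enters inflamed tissue, and a nonclassical type, which depends on NR4A1 and patrols the vessel wall through CX3CR1 and the integrin LFA-1. In atherosclerosis monocytes feed the macrophage pool of the lesion, whereas the peritoneal macrophages stand outside it and share only the systemic disease.

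Library totals were 1.67 to 2.21 M reads assigned to genes in peritoneal macrophages (1.89 ± 0.231 M, mean ± SD, n = 4) and 0.943 to 1.69 M reads in monocytes (1.38 ± 0.317 M, n = 4; exact permutation test, two-sided, p = 0.0571, where 4 against 4 libraries cannot go below 0.0286). The ribosomal precursor gene Rn45s took 12.7 to 19.8% of the reads in peritoneal macrophages and 6.50 to 13.9% in monocytes (exact p = 0.143). The 10 genes with the most reads took 24.2 to 31.0% in peritoneal macrophages and 12.98 to 20.4% in monocytes (exact p = 0.0286). No 2 libraries held the same counts within sampling noise. Levels are given as CPM, read counts scaled to a common library size after TMM normalisation. CPM takes no account of gene length and is compared only within a gene. The labels do not give the deleted part of Apoe, and its few reads (5.93, 5.67, 4.73 and 3.68 CPM in peritoneal macrophages, 2.48, 8.29, 9.89 and 10.2 CPM in monocytes) do not check the genotype.

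The populations differed in most of the genes that could be tested. Of 8993 genes, 4777 (53.1%) passed edgeR's quasi-likelihood test at a Benjamini-Hochberg adjusted p under 0.05. Of these, 2470 (27.5% of the genes tested) were higher in peritoneal macrophages and 2307 (25.7%) lower. These shares are the background against which the counts of each gene list below are to be read. At least a 4-fold difference was found for 607 higher genes (6.75%) and 459 lower genes (5.1%). The 4 peritoneal libraries all lay above the 4 monocyte libraries for 2130 genes (23.7%) and all below them for 2191 (24.4%). The split by direction depended on the scaling. With library totals alone in place of TMM factors, 1696 genes were higher and 3405 lower (33.2% of the calls higher, against 51.7% with TMM), and the median log2 difference over all genes was -0.25 in place of 0.02. In these bulk libraries fewer cells of a type and less RNA per cell cannot be told apart.

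**Figure D1:**
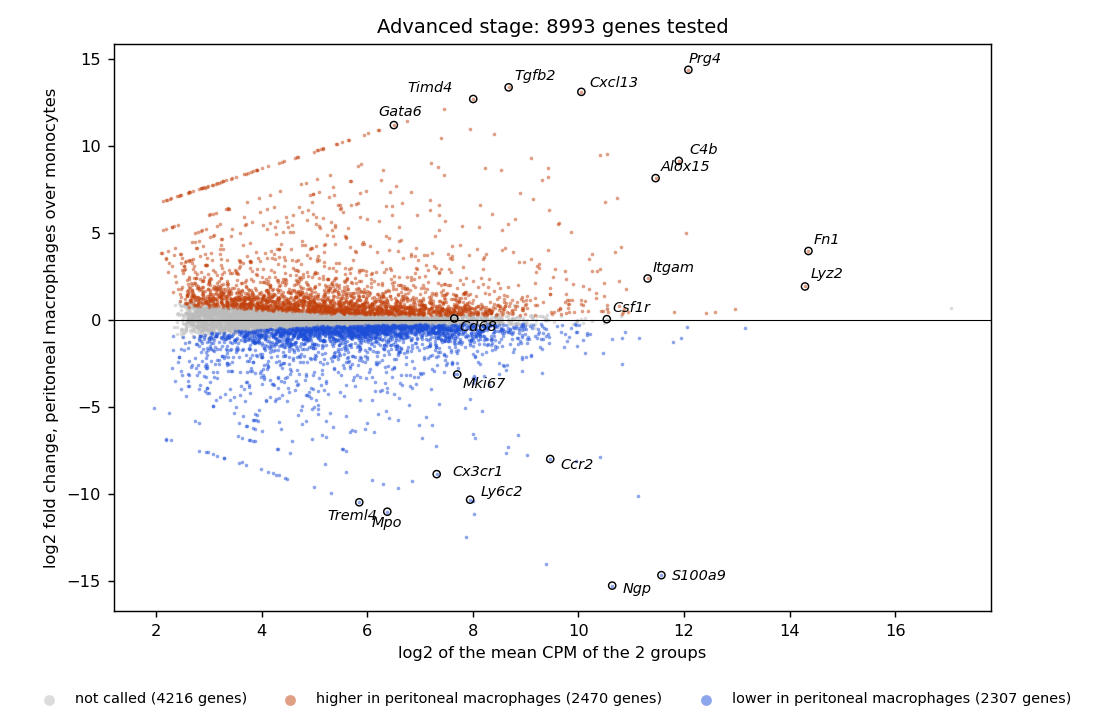
Log2 fold change (peritoneal macrophages over monocytes, y axis) against log2 mean CPM (x axis) for the 8993 genes tested, with genes higher, lower and not called in separate colours and a selection of named genes labelled. The 2470 higher and 2307 lower genes extend to beyond 14 log2 units in both directions, and genes without a read in one population lie at the edges.

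The peritoneal libraries carried the program of large resident peritoneal macrophages, and the monocyte libraries lacked most of it. All 23 tested genes of a list of such markers were higher in peritoneal macrophages (23 higher, 0 lower; median log2 fold change 7.78, or 7.02 with genes at 0 reads set to their bound, against 0.02 over all genes). Gata6, the factor that sets their identity, had 177, 183, 175 and 191 CPM in peritoneal macrophages and not a single read in the 4 monocyte libraries. Against a floor of 3 reads over the monocyte group, Gata6 was at least 356-fold higher. Prg4, which encodes lubricin, a lubricating glycoprotein of body cavities and joints, had 9073, 9133, 8810 and 7679 CPM in peritoneal macrophages and 1.24, 0, 0 and 0 CPM in monocytes. With 2 monocyte reads in all, the ratio for Prg4 was 25390 (95% counting interval 7027 to 209600). The peritoneal values of Gata6 and Prg4 lay close together, with no library apart.

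Further members were as clearly divided. Timd4, a phosphatidylserine receptor for dead cells, had 397, 552, 631 and 476 CPM in peritoneal macrophages and 0 in each monocyte library (at least 1004-fold higher). Tgfb2, a TGF-beta ligand, had 896, 851, 879 and 647 CPM in peritoneal macrophages and 0 in each monocyte library (at least 1592-fold higher). Both were therefore found in all of the peritoneal libraries and in none of the monocyte libraries. Selp, which encodes the adhesion molecule P-selectin, had 927, 1215, 1048 and 1175 CPM in peritoneal macrophages and 1.86, 0.921, 2.33 and 1.37 CPM in monocytes. Its log2 fold change was 9.30 ± 0.21 (± is the SE of the edgeR fit in what follows, n = 4 each; adjusted p = 3.32e-12). Ltbp1, which encodes a protein that binds latent TGF-beta, had 2781, 3252, 2811 and 3059 CPM in peritoneal macrophages and 5.59, 9.21, 1.75 and 1.37 CPM in monocytes (log2 fold change 9.50 ± 0.30, adjusted p = 5.68e-11). For Selp and Ltbp1 the lowest peritoneal library exceeded the highest monocyte library by orders of magnitude. Fn1, fibronectin, which plasma and many macrophages carry, was expressed on both sides, with 46420, 39460, 33180 and 38450 CPM in peritoneal macrophages and 2419, 2244, 3052 and 2730 CPM in monocytes (log2 fold change 3.95 ± 0.18, adjusted p = 1.09e-09). Among the genes with the largest differences, Garnl3, also of that marker list, and Lama3, a laminin chain that no list held, had no monocyte read. They were at least 418.9-fold and at least 291.1-fold higher. Wnt2, a WNT ligand, had 171, 162, 158 and 97.8 CPM in peritoneal macrophages and 0 in monocytes (at least 285.4-fold higher), and peritoneal library 4 lay below the other 3. Gbp2b, an interferon-inducible GTPase, had 3362 reads in peritoneal macrophages and 1 in monocytes (ratio 2878, 516.3 to 113700).

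The markers of small peritoneal macrophages, the monocyte-derived cells of the cavity, did not move as one. Of 5 tested genes 3 were higher in peritoneal macrophages, 1 was lower and 1 did not pass (median 0.77). Retnla, whose secreted product marks alternative activation, had 62.3, 73.0, 148 and 235 CPM in peritoneal macrophages and 0 in monocytes (at least 262.3-fold higher), so it was found in each peritoneal library at a level that varied nearly 4-fold. Irf4 was higher (0.77 ± 0.21, adjusted p = 0.00673) and so was Clec10a, a lectin (1.34 ± 0.33, adjusted p = 0.00431), whereas Cd226 was lower (-3.55 ± 0.58, adjusted p = 0.000182). Mrc1, the mannose receptor, had 29.1, 20.8, 75.7 and 58.9 CPM in peritoneal macrophages and 27.3, 31.3, 23.9 and 40.3 CPM in monocytes and did not pass (adjusted p = 0.134), except without peritoneal library 2 (0.88, adjusted p = 0.0264). Mgl2, a close relative of Clec10a, had 66 reads in peritoneal macrophages and 15 in monocytes and was too low to test, as was Bhlhe41 of the large cells (34 and 2 reads).

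Monocyte genes showed the reverse picture. Of 14 tested markers of classical monocytes 11 were lower in peritoneal macrophages and 1 was higher (median -3.51), and all 12 of the nonclassical type were lower (median -5.50). Ly6c2, one of a pair of genes for the Ly6C surface antigen, had 0, 0.630, 0 and 0.526 CPM in peritoneal macrophages and 348, 577, 562 and 487 CPM in monocytes, or 2 reads against 2864 (ratio 1673-fold lower, 462.6 to 13820). Its near-identical copy Ly6c1 had 0 and 5 reads. Ccr2, the receptor for the chemokine that draws monocytes into tissue, had 6.53, 6.93, 4.14 and 3.68 CPM in peritoneal macrophages and 2055, 1275, 1159 and 1142 CPM in monocytes (-8.01 ± 0.28, adjusted p = 9.36e-11). Both genes were thus at or close to 0 in each peritoneal library. Plac8 (-8.11 ± 0.26, adjusted p = 7.73e-11) and Ms4a4c (-7.28 ± 0.33, adjusted p = 9.38e-10) fell too.

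Not all of the classical list followed. F13a1, the A subunit of coagulation factor XIII, had 296, 576, 1025 and 1551 CPM in peritoneal macrophages and 1546, 699, 1028 and 916 CPM in monocytes, with a log2 difference of -0.24 (adjusted p = 0.623). The F13a1 values of both groups spanned more than 2-fold and overlapped. Mgst1 did not pass either (0.29 ± 0.13, adjusted p = 0.0752), except without peritoneal library 2 (0.38, adjusted p = 0.0168) or with limma-voom (0.31, adjusted p = 0.0466). Itgb7, the beta chain of a homing integrin, was the one member that was higher in peritoneal macrophages, with 167, 329, 269 and 286 CPM there and 137, 165, 153 and 157 CPM in monocytes (0.82 ± 0.17, adjusted p = 0.00125).

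The nonclassical genes were lower without exception. Cx3cr1, the fractalkine receptor, had 0.593, 0, 0.591 and 1.05 CPM in peritoneal macrophages and 230, 338, 300 and 403 CPM in monocytes (-8.88 ± 0.33, adjusted p = 1.71e-10). Itgal, the alpha chain of LFA-1, had 2.97, 8.19, 4.14 and 3.15 CPM in peritoneal macrophages and 920, 1093, 916 and 1193 CPM in monocytes (-7.77 ± 0.23, adjusted p = 3.14e-11). Treml4, a receptor of nonclassical monocytes and of splenic macrophages, had 0 in each peritoneal library and 97.5, 126, 96.0 and 141 CPM in monocytes (at least 258.9-fold lower). These values left no overlap for Cx3cr1, Itgal or Treml4. Ace, angiotensin-converting enzyme (-7.68 ± 0.37, adjusted p = 1.73e-09), and Spn, the surface mucin CD43 (-6.07 ± 0.33, adjusted p = 5.26e-09), fell too. Gpr141, an orphan receptor that no list held, had 1 read in peritoneal macrophages and 3031 in monocytes (ratio 3540-fold lower, 634.9 to 139900).

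Genes of general macrophage identity were divided. Of 14 tested, 8 were higher in peritoneal macrophages, 4 lower and 2 did not pass (median 0.82). Over all genes 27.5% were higher and 25.7% lower. Csf1r, the receptor for the growth factor that both populations need, had 1292, 1587, 1557 and 1497 CPM in peritoneal macrophages and 1336, 1508, 1360 and 1752 CPM in monocytes, a log2 difference of 0.03 ± 0.12 (adjusted p = 0.867). Cd68, a lysosomal glycoprotein, differed by 0.07 ± 0.11 (adjusted p = 0.613). Values of both genes overlapped between the groups. Adgre1, which encodes the F4/80 antigen, had 2507, 2090, 2049 and 2464 CPM in peritoneal macrophages and 225, 151, 144 and 147 CPM in monocytes (3.80 ± 0.16, adjusted p = 6.66e-10). Cd14, the co-receptor for bacterial lipopolysaccharide, was higher by 2.91 ± 0.14 (adjusted p = 1.97e-09). Lyz2, lysozyme, was higher by 1.91 ± 0.18 (adjusted p = 8.95e-07) and its near copy Lyz1 by 5.80 ± 0.21 (adjusted p = 1.69e-10), with the limit that reads of 2 such genes can be assigned to one another. The Fc receptor Fcgr1 (-1.30 ± 0.15, adjusted p = 6.56e-06) and the receptor chains Csf2rb (-0.67 ± 0.13, adjusted p = 0.000553) and Csf2ra (-0.58 ± 0.13, adjusted p = 0.0024) for the cytokine GM-CSF were lower. Flt3, a receptor of progenitors and dendritic cells, was lower at 3 reads against 131 (ratio 51-fold lower, 17.07 to 250.5).

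Of 30 tested transcription factors 12 were higher in peritoneal macrophages and 16 lower (median -0.93). Rarb, a retinoic acid receptor, had 72.4, 47.9, 54.4 and 40.0 CPM in peritoneal macrophages and 1 read over the monocyte libraries (ratio 313.3, 55.89 to 12410). Mitf, a regulator of lysosomal genes, was higher (1.58 ± 0.18, adjusted p = 6.76e-06). Pparg, the fatty acid sensor that drives other tissue macrophages, had 0 in each peritoneal library and 9.93, 23.0, 14.6 and 14.3 CPM in monocytes (at least 33.87-fold lower). Runx1 (-1.75 ± 0.11, adjusted p = 1.35e-08), Pou2f2 (-2.71 ± 0.22, adjusted p = 2.55e-07), Irf5 (-1.24 ± 0.11, adjusted p = 7.98e-07) and Runx2 (-5.03 ± 0.41, adjusted p = 2.58e-07) were lower. Zeb2 (0.08, adjusted p = 0.558) and Cebpb (-0.14, adjusted p = 0.513) did not pass. Spi1, which encodes PU.1, the factor common to the myeloid lineage, and which was named after its values were seen, had 116, 122, 103 and 113 CPM in peritoneal macrophages and 225, 244, 227 and 264 CPM in monocytes (-1.05 ± 0.10, adjusted p = 1.82e-06). The PU.1 transcript was therefore present in all 8 libraries and lower in the 4 peritoneal ones.

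Promoters of 6 genes with large differences are printed for the letters known to bind such factors. The 6 were chosen by hand and each holds marked letters, so they do not show how common such letters are. Shares over sets of promoters are given below. Each printed promoter runs from 250 bases before to 50 after an annotated start of its gene, 5′ to 3′ on the gene's strand, from RefSeq's GRCm38.p6. Capitals mark the GATA factor letters in Tgfb2 and the PU.1 letters in the others, on either strand, so that a match on the opposite strand is printed as its reverse complement. C1qc and Retnla are shown as genes higher in peritoneal macrophages and Mpo, S100a8 and Ly6c2 as genes lower.
Tgfb2, chr1:186705940-186706239, minus strand: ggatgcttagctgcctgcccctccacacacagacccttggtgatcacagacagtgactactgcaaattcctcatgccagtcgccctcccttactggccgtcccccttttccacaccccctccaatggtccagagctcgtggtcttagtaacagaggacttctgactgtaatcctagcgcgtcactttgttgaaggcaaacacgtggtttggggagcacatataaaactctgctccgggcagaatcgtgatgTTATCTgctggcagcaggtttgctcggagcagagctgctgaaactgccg
C1qc, chr4:136892865-136893164, minus strand: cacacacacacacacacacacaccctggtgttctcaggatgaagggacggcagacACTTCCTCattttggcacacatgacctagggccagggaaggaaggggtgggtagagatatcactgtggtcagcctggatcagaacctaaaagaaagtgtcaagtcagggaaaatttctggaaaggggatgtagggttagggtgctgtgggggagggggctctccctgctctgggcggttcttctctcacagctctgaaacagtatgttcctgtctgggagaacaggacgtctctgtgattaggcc
Retnla, chr16:48842359-48842658, plus strand: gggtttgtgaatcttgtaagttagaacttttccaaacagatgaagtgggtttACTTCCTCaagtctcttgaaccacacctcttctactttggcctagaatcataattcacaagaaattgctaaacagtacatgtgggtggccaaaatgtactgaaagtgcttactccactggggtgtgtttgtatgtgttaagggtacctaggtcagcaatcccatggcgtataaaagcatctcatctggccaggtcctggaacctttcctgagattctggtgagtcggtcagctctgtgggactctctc
Mpo, chr11:87793534-87793833, plus strand: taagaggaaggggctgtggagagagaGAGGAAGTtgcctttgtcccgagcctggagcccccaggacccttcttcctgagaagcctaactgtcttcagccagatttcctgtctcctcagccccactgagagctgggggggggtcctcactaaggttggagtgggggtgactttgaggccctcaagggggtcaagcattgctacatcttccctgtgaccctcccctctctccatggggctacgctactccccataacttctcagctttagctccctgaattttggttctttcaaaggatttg
S100a8, chr3:90668821-90669120, plus strand: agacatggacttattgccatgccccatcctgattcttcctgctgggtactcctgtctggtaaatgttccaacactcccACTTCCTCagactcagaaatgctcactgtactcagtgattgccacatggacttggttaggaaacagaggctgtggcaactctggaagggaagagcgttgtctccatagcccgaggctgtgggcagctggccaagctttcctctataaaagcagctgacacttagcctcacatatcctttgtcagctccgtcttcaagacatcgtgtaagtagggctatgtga
Ly6c2, chr15:75111922-75112221, minus strand, the first of 2 annotated windows: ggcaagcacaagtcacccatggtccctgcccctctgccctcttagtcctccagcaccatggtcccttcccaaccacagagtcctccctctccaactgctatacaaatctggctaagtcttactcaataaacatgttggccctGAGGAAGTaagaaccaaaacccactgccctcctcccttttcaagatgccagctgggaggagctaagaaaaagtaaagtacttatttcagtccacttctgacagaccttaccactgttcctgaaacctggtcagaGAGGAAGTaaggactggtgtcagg

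The GATA letters of Tgfb2 begin 1 base past the start used for its window. That start lies inside the gene, whose annotated span is chr1:186622787-186709697. The PU.1 letters of Ly6c2 occur both 108 bases before and 26 bases past the start of its printed window's annotation. No marked letters overlapped another motif. The letters searched on both strands were AGATAA for GATA factors. For PU.1 they were GAGGAAGT. For C/EBP they were TTGC, any 2 bases and CAA. For IRF they were GAAA, any 2 bases and GAAA. The PU.1 letters were in 3.28% of 27025 promoters, in 3.67% of the 6980 tested genes with a promoter, in 3.96% of 454 genes at least 4-fold higher in peritoneal macrophages and in 10.4% of 316 genes at least 4-fold lower. The IRF letters were in 3.49% of all promoters, 3.27% of those of the tested genes, 1.98% of the higher genes and 6.33% of the lower genes. The GATA letters were in 11.4% of all promoters but in 6.09% of those of the tested genes, with 5.95% of the higher and 8.86% of the lower genes. The C/EBP letters were in 2.12% of all promoters, 1.7% of those of the tested genes, 2.64% of the higher and 2.22% of the lower genes. Such matches describe letters and are not binding sites.

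Complement genes were mostly higher. Of 14 tested, 13 were higher in peritoneal macrophages and 1 was lower (median 4.43). The chains of C1q, the molecule that starts the classical pathway and tags dead cells, rose together. C1qa had 463, 585, 637 and 700 CPM in peritoneal macrophages and 1.86, 2.76, 0 and 1.37 CPM in monocytes (8.73 ± 0.30, adjusted p = 8.26e-11). C1qc, whose promoter is printed above, had 1251, 1248, 1354 and 1616 CPM in peritoneal macrophages and 4.97, 4.61, 3.49 and 5.46 CPM in monocytes (8.23 ± 0.18, adjusted p = 3.32e-12). C1qb rose by 7.28 ± 0.24 (adjusted p = 7.98e-11), so that all 3 chains were near 0 in monocytes. C4b, the next component of the cascade, had 7569, 8191, 7245 and 7527 CPM in peritoneal macrophages and 34.8, 5.53, 4.07 and 9.56 CPM in monocytes (9.13 ± 0.45, adjusted p = 2.09e-09). C3, on which all pathways converge, was the one gene of the list to fall, with 339, 458, 403 and 354 CPM in peritoneal macrophages and 973, 825, 1309 and 934 CPM in monocytes (-1.34 ± 0.15, adjusted p = 4.55e-06). Its receptor for the C3a fragment, C3ar1, rose by 5.31 ± 0.20 (adjusted p = 1.98e-10).

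Coagulation genes were mostly higher as well, 7 of 12 tested against 1 lower (median 1.83). F5, factor V, had 3091, 3354, 3014 and 2940 CPM in peritoneal macrophages and 214, 272, 229 and 146 CPM in monocytes (3.89 ± 0.18, adjusted p = 1.02e-09). Thbs1, thrombospondin, had 9283, 7947, 5570 and 9571 CPM in peritoneal macrophages and 168, 142, 350 and 384 CPM in monocytes (4.99 ± 0.33, adjusted p = 3.61e-08). Serpinb2, an inhibitor of plasminogen activators, had 1290, 1377, 1299 and 1070 CPM in peritoneal macrophages and 5.59, 10.1, 2.91 and 2.05 CPM in monocytes (8.05 ± 0.26, adjusted p = 6.73e-11). For these 3 genes, one procoagulant, one a matrix protein and one antifibrinolytic, the groups did not overlap. Pros1, protein S, which is both an anticoagulant cofactor and a bridge to dead cells, rose by 3.32 ± 0.15 (adjusted p = 1.15e-09). Anxa2, which binds plasminogen at the cell surface, fell by 1.80 on the log2 scale (SE 0.12, adjusted p = 3.1e-08). Thbd, thrombomodulin, had 204, 75.6, 110 and 93.6 CPM in peritoneal macrophages and 114, 119, 120 and 124 CPM in monocytes (0.05, adjusted p = 0.870).

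Enzymes that make eicosanoids, lipid mediators from arachidonic acid, changed in composition. Of 18 tested genes 10 were higher in peritoneal macrophages and 5 lower (median 0.62), against 27.5% and 25.7% of all genes tested. With library totals alone 8 were higher and 5 lower. Alox15, the lipoxygenase of resident macrophages, had 5145, 5832, 5341 and 6158 CPM in peritoneal macrophages and 16.8, 51.6, 12.2 and 6.83 CPM in monocytes (8.14 ± 0.42, adjusted p = 3.35e-09). Ptgis, prostacyclin synthase, had 358, 312, 348 and 383 CPM in peritoneal macrophages and 0 in each monocyte library (at least 689.8-fold higher). Ltc4s, leukotriene C4 synthase, had 130, 101, 114 and 127 CPM in peritoneal macrophages and 1 monocyte read (ratio 697.8, 124.9 to 27590). Reads of these 3 enzymes thus came almost entirely from the peritoneal libraries. Of the 2 cyclooxygenases, the constitutive Ptgs1 had 359, 446, 438 and 397 CPM in peritoneal macrophages and 8.69, 34.1, 33.2 and 12.3 CPM in monocytes (4.28 ± 0.29, adjusted p = 3.97e-08). The inducible Ptgs2 had 0, 0, 0.591 and 0 CPM in peritoneal macrophages and 8.07, 18.4, 34.3 and 47.1 CPM in monocytes (1 peritoneal read; ratio 188.1-fold lower, 33.28 to 7473). The 2 cyclooxygenases therefore lay on opposite sides. Hpgd, which degrades prostaglandins, fell by 6.46 on the log2 scale (SE 0.35, adjusted p = 4.93e-09), Ptgir, the prostacyclin receptor, by 1.36 (SE 0.16, adjusted p = 9.47e-06), and Ltb4r1, a leukotriene B4 receptor, had 1 peritoneal read (ratio 316.5-fold lower, 56.33 to 12550). Alox5ap (0.24, adjusted p = 0.108) and Pla2g7 (0.23, adjusted p = 0.313) did not pass. Alox5ap passed without monocyte library 1 (0.32, adjusted p = 0.0372), without peritoneal library 2 (0.31, adjusted p = 0.039) and with limma-voom (0.28, adjusted p = 0.0379).

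Receptors and bridges for dead cells split evenly, with 7 of 14 tested higher in peritoneal macrophages and 7 lower (median -0.07). Mertk, a receptor kinase for dead cells, had 214, 172, 187 and 182 CPM in peritoneal macrophages and 8.69, 6.45, 1.75 and 2.73 CPM in monocytes (5.32 ± 0.26, adjusted p = 1.68e-09). With Timd4 and Pros1, described above, and Mfge8, a bridging protein (2.85 ± 0.29, adjusted p = 2.23e-06), it was among the higher genes. Itgb5, the integrin chain through which that bridge can bind, fell by 5.84 on the log2 scale (SE 0.29, adjusted p = 2.5e-09), Cd300lf, a lipid receptor, by 3.55 (SE 0.37, adjusted p = 2.89e-06) and Abca7 by 1.29 (SE 0.15, adjusted p = 6.44e-06). Lrp1 was higher by 0.43 ± 0.14 (adjusted p = 0.0189), a call that ended with library totals alone (0.17, adjusted p = 0.365), in the fit of 24 libraries (0.39, adjusted p = 0.0839) and without peritoneal library 1 (0.33, adjusted p = 0.0549) or monocyte library 2 (0.39, adjusted p = 0.0572).

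Of 13 scavenger receptors, which take up modified lipoproteins, 9 were higher in peritoneal macrophages and 2 lower (median 1.49). Msr1, scavenger receptor A, had 1405, 1319, 1683 and 1567 CPM in peritoneal macrophages and 235, 245, 183 and 210 CPM in monocytes (2.81 ± 0.13, adjusted p = 1.44e-09). Colec12, a related collectin, had 159, 165, 189 and 184 CPM in peritoneal macrophages and 3.10, 1.84, 1.16 and 4.78 CPM in monocytes (6.00 ± 0.22, adjusted p = 1.85e-10). Marco had 3 reads in monocytes and 42.7, 112, 109 and 64.1 CPM in peritoneal macrophages (ratio 159, 54.11 to 773.1). These 3 receptors, all of the collagen-domain kind, were higher in every peritoneal library. Scarb1, the receptor for high-density lipoprotein, fell by 1.44 on the log2 scale (SE 0.18, adjusted p = 1.77e-05) and Olr1 by 1.49 (SE 0.41, adjusted p = 0.00754).

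Targets of the sterol-sensing receptor LXR were mixed, with 6 of 14 tested higher and 4 lower (median 0.36). The shares over all genes were 27.5% higher and 25.7% lower. Pltp, a phospholipid transfer protein, rose by 3.98 ± 0.18 (adjusted p = 9.97e-10), Lpl, lipoprotein lipase, by 3.87 ± 0.31 (adjusted p = 2.55e-07) and Apoc1, an apolipoprotein, by 6.66 ± 0.42 (adjusted p = 2.11e-08). Abcg1, a cholesterol exporter, had 166, 32.8, 69.2 and 55.2 CPM in peritoneal macrophages and 225, 356, 262 and 362 CPM in monocytes (-1.86 ± 0.36, adjusted p = 0.000614). Nr1h3, which encodes LXR-alpha itself, fell by 2.13 on the log2 scale (SE 0.31, adjusted p = 5.84e-05), and the LXR-beta gene Nr1h2 did not pass (0.29, adjusted p = 0.198), except without peritoneal library 3 (0.45, adjusted p = 0.0272). Members of the one list thus lay far out on both sides.

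Genes of cholesterol synthesis and uptake under SREBP2, the factor that low sterol activates, were higher for 7 of 14 tested and lower for none (median 1.30), while 9 more members were too low to test. Insig1, which retains the SREBP machinery when sterol is high, had 47.5, 119, 92.2 and 96.7 CPM in peritoneal macrophages and 17.4, 31.3, 30.3 and 38.2 CPM in monocytes (1.64 ± 0.27, adjusted p = 0.000218). Srebf2 itself had 52.2, 161, 110 and 117 CPM in peritoneal macrophages and 52.1, 35.9, 44.2 and 38.2 CPM in monocytes (1.39 ± 0.27, adjusted p = 0.00067). For both Insig1 and Srebf2 peritoneal library 1 was the lowest and library 2 the highest of its group. The same held widely in the list: library 1 was lowest for 20 of 23 members with a read and library 2 highest for 20 of 23.

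Lipid droplet and fatty acid genes were higher for 6 of 17 tested and lower for 5, near the shares over all genes of 27.5% and 25.7% (median -0.06; 4 and 6 with library totals alone). Fabp4, a fatty acid carrier, had 440, 221, 273 and 269 CPM in peritoneal macrophages and 4.35, 22.1, 7.56 and 12.98 CPM in monocytes (4.81 ± 0.33, adjusted p = 5.23e-08). Plin2, the coat protein of lipid droplets, rose by 1.17 ± 0.21 (adjusted p = 0.000414). Dgat2, which makes triglyceride, had 1 peritoneal read (ratio 193.9-fold lower, 34.32 to 7704), and Soat1, which esterifies cholesterol, fell by 0.48 on the log2 scale (SE 0.11, adjusted p = 0.00293).

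Most tested genes of MHC class II, of the interferon-stimulated list and of the inflammatory cytokine list were lower in peritoneal macrophages. All 7 tested MHC class II genes fell (median -2.56). H2-DMb2, H2-Oa and H2-Ob were too low to test, with 68 peritoneal and 40 monocyte reads between them. H2-Aa, an alpha chain, had 24.9, 77.5, 56.8 and 40.5 CPM in peritoneal macrophages and 252, 340, 237 and 411 CPM in monocytes (-2.60 ± 0.27, adjusted p = 3.33e-06). Cd74, the invariant chain, had 40.3, 154, 137 and 102 CPM in peritoneal macrophages and 739, 994, 670 and 1050 CPM in monocytes (-2.96 ± 0.31, adjusted p = 2.79e-06). Ciita, the transactivator of the class II genes, fell by 3.91 on the log2 scale (SE 0.39, adjusted p = 1.77e-06). H2-Aa, Cd74 and Ciita did not overlap between groups. The smallest change among the tested genes was that of H2-DMa, a chaperone chain (-0.97 ± 0.19, adjusted p = 0.000723).

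Of 25 tested genes of an interferon-stimulated list 20 were lower in peritoneal macrophages and 0 higher (median -1.01). Without overlap between the groups 11 were lower, and 2 were at least 4-fold lower, against 24.4% and 5.1% of all genes tested. The list does not hold the interferon-inducible Gbp2b, which was higher in peritoneal macrophages, as given above. Ifit2, an antiviral RNA-binding protein, had 0, 5.04, 1.77 and 1.58 CPM in peritoneal macrophages and 40.4, 98.5, 53.5 and 67.6 CPM in monocytes (-4.88 ± 0.46, adjusted p = 1.21e-06). Zbp1, a nucleic acid sensor, had 16.6, 76.8, 33.1 and 37.9 CPM in peritoneal macrophages and 112, 142, 132 and 150 CPM in monocytes (-1.67 ± 0.30, adjusted p = 0.000397). Irf9, part of the complex that reads the interferon signal, fell by 0.73 on the log2 scale (SE 0.12, adjusted p = 0.000256). Peritoneal library 2 was again the highest of its group, for 25 of 26 members with a read. Oas2 (0.09, adjusted p = 0.705) and Rtp4 (0.34, adjusted p = 0.167, but 0.51 and 0.0331 without peritoneal library 1) did not pass, with Oas2 at 119, 204, 118 and 124 CPM in peritoneal macrophages and 136, 167, 116 and 128 CPM in monocytes.

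Of 10 tested inflammatory cytokine genes 7 were lower and 1 was higher (median -1.13), which was Tgfb2. A further 7 members were too low to test, among them Tnf, Il1a, Il6, Il10 and Il12b. Together these 7 had 94 peritoneal and 111 monocyte reads. Il1b, interleukin-1 beta, had 0, 0, 0.591 and 0.526 CPM in peritoneal macrophages and 44.7, 34.1, 52.4 and 58.1 CPM in monocytes (2 peritoneal reads; ratio 165.9-fold lower, 45.49 to 1376). Il1rn, its natural antagonist, fell by 3.19 on the log2 scale (SE 0.26, adjusted p = 3.21e-07), Tnfaip3, a brake on NF-kappaB signalling, by 2.07 (SE 0.27, adjusted p = 2.35e-05), and Tgfb1 by 1.11 (SE 0.13, adjusted p = 8.99e-06). The list thus holds agonists and inhibitors that fell together. Nfkbia (-0.29, adjusted p = 0.377) and Csf1 (0.64, adjusted p = 0.163) did not pass. Peritoneal library 1 had 274 CPM of Nfkbia, above the other 3, and without it Nfkbia passed as lower (-0.67, adjusted p = 0.0099). Of 8 genes of alternative activation 4 were higher and 2 lower (median 0.99), against 27.5% and 25.7% of all genes tested. Arg1, arginase, had 61.7, 62.3, 91.7 and 46.8 CPM in peritoneal macrophages and 1 monocyte read (ratio 382.7, 68.34 to 15150). Chil3, a chitinase-like protein also made by monocytes and neutrophils, had 13.1, 3.78, 14.8 and 11.6 CPM in peritoneal macrophages and 2113, 2159, 4576 and 2012 CPM in monocytes (-7.91 ± 0.38, adjusted p = 1.63e-09).

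Chemokine receptors and ligands were exchanged between the populations. Of 8 tested receptors 3 were higher in peritoneal macrophages and 5 lower (median -2.66). Ccr1 had 556, 469, 626 and 521 CPM in peritoneal macrophages and 93.7, 33.2, 38.4 and 17.8 CPM in monocytes (3.58 ± 0.33, adjusted p = 9e-07). Ackr3, a scavenging receptor for CXCL12, had 71.2, 35.3, 36.7 and 28.9 CPM in peritoneal macrophages and 0 in monocytes (at least 83.62-fold higher), whereas Cxcr4, the signalling receptor for the same ligand, had 30.3, 12.6, 10.6 and 14.2 CPM in peritoneal macrophages and 224, 228, 238 and 208 CPM in monocytes (-3.69 ± 0.23, adjusted p = 1.54e-08). Cxcl12 itself had 70.6, 111, 124 and 102 CPM in peritoneal macrophages and 2 monocyte reads (ratio 299.2, 82.52 to 2476). Receptors and ligand of this one axis were therefore divided between the populations. Ccrl2 was lower (-1.63 ± 0.48, adjusted p = 0.0121), but not without monocyte library 4 (-1.18, adjusted p = 0.053), with limma-voom (-1.36, adjusted p = 0.0584) or in the fit of 24 libraries (-1.68, adjusted p = 0.0647).

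Of 12 tested chemokines 7 were higher and 4 lower (median 0.76), against 27.5% and 25.7% of all genes tested. Cxcl13, which draws B cells to the serous cavities, had 1930, 1151, 2926 and 2502 CPM in peritoneal macrophages and 1 read in monocytes (ratio 12660, 2272 to 500200). Ccl24, an eosinophil attractant, had 2 monocyte reads (ratio 198.6, 54.68 to 1645) and Pf4, a chemokine of platelets and of some resident macrophages, rose by 6.61 ± 0.36 (adjusted p = 5.11e-09). The interferon-induced Cxcl10 had 0 in each peritoneal library and 6.83, 15.7, 8.73 and 7.51 CPM in monocytes (at least 21.02-fold lower), and Ccl3 fell by 3.35 on the log2 scale (SE 0.61, adjusted p = 0.000416). Cxcl2 did not pass (0.69, adjusted p = 0.196), but did so without monocyte library 4 (1.34, adjusted p = 0.0104).

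Integrins and adhesion molecules all passed, 10 of 22 higher in peritoneal macrophages and 12 lower (median -0.93). Itga6, a laminin-binding chain, had 3361, 3512, 3379 and 3274 CPM in peritoneal macrophages and 42.2, 15.7, 20.4 and 26.6 CPM in monocytes (7.02 ± 0.23, adjusted p = 7.98e-11). Itgam, the alpha chain of Mac-1, had 3769, 4515, 4039 and 4630 CPM in peritoneal macrophages and 913, 802, 898 and 747 CPM in monocytes (2.37 ± 0.12, adjusted p = 3.77e-09). Itgam and Itgal, which encode alternative partners of one beta chain, thus moved in opposite directions. Itga4, a chain of the receptor VLA-4, fell by 1.05 on the log2 scale (SE 0.12, adjusted p = 1.05e-05).

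Of 25 pattern recognition receptors 8 were higher and 13 lower (median -0.44), against 27.5% and 25.7% of all genes tested. With library totals alone 7 were higher and 15 lower. Naip1, a sensor of bacterial secretion systems, had 366, 300, 323 and 301 CPM in peritoneal macrophages and 6.83, 2.76, 1.75 and 8.20 CPM in monocytes (6.04 ± 0.24, adjusted p = 2.99e-10). Its homologue Naip2 had 285, 281, 294 and 270 CPM in peritoneal macrophages and 282, 289, 283 and 290 CPM in monocytes (0.02 ± 0.09, adjusted p = 0.890). The pair of homologues lay far apart in their difference, with the limit that reads of related Naip genes can be exchanged. Clec4d, a receptor for mycobacterial lipid, rose by 4.09 ± 0.20 (adjusted p = 1.99e-09). Tlr9, the sensor of bacterial DNA, had 0, 3.15, 0 and 1.05 CPM in peritoneal macrophages and 96.8, 107, 98.9 and 99.7 CPM in monocytes (-6.48 ± 0.36, adjusted p = 7.15e-09). Tlr7, the sensor of single-stranded RNA, fell by 0.98 on the log2 scale (SE 0.12, adjusted p = 1.13e-05) and Clec7a, the beta-glucan receptor, by 1.39 (SE 0.15, adjusted p = 3.31e-06).

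Lysosomal genes were higher for 15 of 24 tested and lower for 1 (median 0.67; 12 and 3 with library totals alone). Ctsd, cathepsin D, had 2239, 1984, 2113 and 2260 CPM in peritoneal macrophages and 289, 204, 143 and 141 CPM in monocytes (3.50 ± 0.21, adjusted p = 1.29e-08). Glb1, beta-galactosidase, rose by 3.73 ± 0.17 (adjusted p = 8.7e-10), Gaa, which degrades glycogen, by 2.80 ± 0.14 (adjusted p = 1.79e-09), and Grn, progranulin, by 1.82 ± 0.10 (adjusted p = 7.8e-09). Psap, the precursor of the saposins, was the member that fell, with 1882, 2105, 2030 and 2168 CPM in peritoneal macrophages and 4523, 5649, 4541 and 5550 CPM in monocytes (-1.27 ± 0.13, adjusted p = 2.16e-06). Ctss, cathepsin S, did not pass (-0.19, adjusted p = 0.173), except with library totals alone (-0.47, adjusted p = 0.00576).

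Iron and heme genes were higher for 6 of 13 tested and lower for 3 (median 0.33), against 27.5% and 25.7% of all genes tested. With library totals alone 5 were higher and 5 lower. Trf, transferrin, had 3092, 2906, 3665 and 3845 CPM in peritoneal macrophages and 132, 175, 200 and 249 CPM in monocytes (4.19 ± 0.20, adjusted p = 1.3e-09). Cp, the ferroxidase ceruloplasmin, had 90.2, 180, 230 and 187 CPM in peritoneal macrophages and 0.621, 2.76, 0 and 1.37 CPM in monocytes (7.32 ± 0.46, adjusted p = 2.28e-08). Slc40a1, ferroportin, through which macrophages export iron, had 1 read in peritoneal macrophages and 24.8, 49.7, 57.0 and 26.6 CPM in monocytes (ratio 269.8-fold lower, 47.95 to 10700). Trf and Cp thus lay on the opposite side from Slc40a1. Hp, haptoglobin, fell by 1.72 on the log2 scale (SE 0.22, adjusted p = 1.8e-05). Hmox1, heme oxygenase, did not pass (-0.05, adjusted p = 0.834).

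Genes of oxidative phosphorylation mostly did not pass the test. Of 23 tested genes of oxidative phosphorylation 16 did not pass, 2 were higher and 5 lower (median -0.08; 0 and 11 with library totals alone). Atp5a1, a subunit of ATP synthase, had 310, 339, 328 and 363 CPM in peritoneal macrophages and 311, 294, 317 and 321 CPM in monocytes (0.14 ± 0.09, adjusted p = 0.213). Cycs, cytochrome c, was lower, with 11.3, 7.56, 11.8 and 11.6 CPM in peritoneal macrophages and 41.6, 43.3, 40.1 and 47.8 CPM in monocytes (-1.98 ± 0.19, adjusted p = 1.08e-06). Of 17 glycolytic genes 4 were higher and 8 lower (median -0.40), against 27.5% and 25.7% of all genes tested. With library totals alone 4 were higher and 11 lower. Pfkl, the liver form of phosphofructokinase, rose by 2.35 ± 0.21 (adjusted p = 8.46e-07), Ldha by 1.04 ± 0.13 (adjusted p = 1.25e-05) and Hk1 by 0.96 ± 0.15 (adjusted p = 0.000128). Slc2a3, a glucose transporter, had 3 peritoneal reads (ratio 65.8-fold lower, 22.13 to 322.3) and Hk2 fell by 1.18 on the log2 scale (SE 0.18, adjusted p = 8.61e-05), so both hexokinases changed and in opposite directions.

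Cell cycle genes were lower for 12 of 17 tested and higher for none (median -2.14). Mki67, a protein of dividing cells, had 17.2, 47.2, 47.9 and 52.6 CPM in peritoneal macrophages and 254, 239, 902 and 107 CPM in monocytes (-3.15 ± 0.55, adjusted p = 0.000321). Rrm2, a subunit of ribonucleotide reductase, had 2.37, 3.15, 6.50 and 2.63 CPM in peritoneal macrophages and 26.1, 35.9, 111 and 19.8 CPM in monocytes (-3.68 ± 0.60, adjusted p = 0.000167). The groups did not overlap for either, but monocyte library 3 stood well above the rest and was the highest of its group for 20 of 21 members. Without it, 11 genes were lower and the median was -1.20. The replication licensing factors Mcm3 (-0.25, adjusted p = 0.479) and Mcm6 (0.13, adjusted p = 0.672) did not pass.

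**Figure D2:**
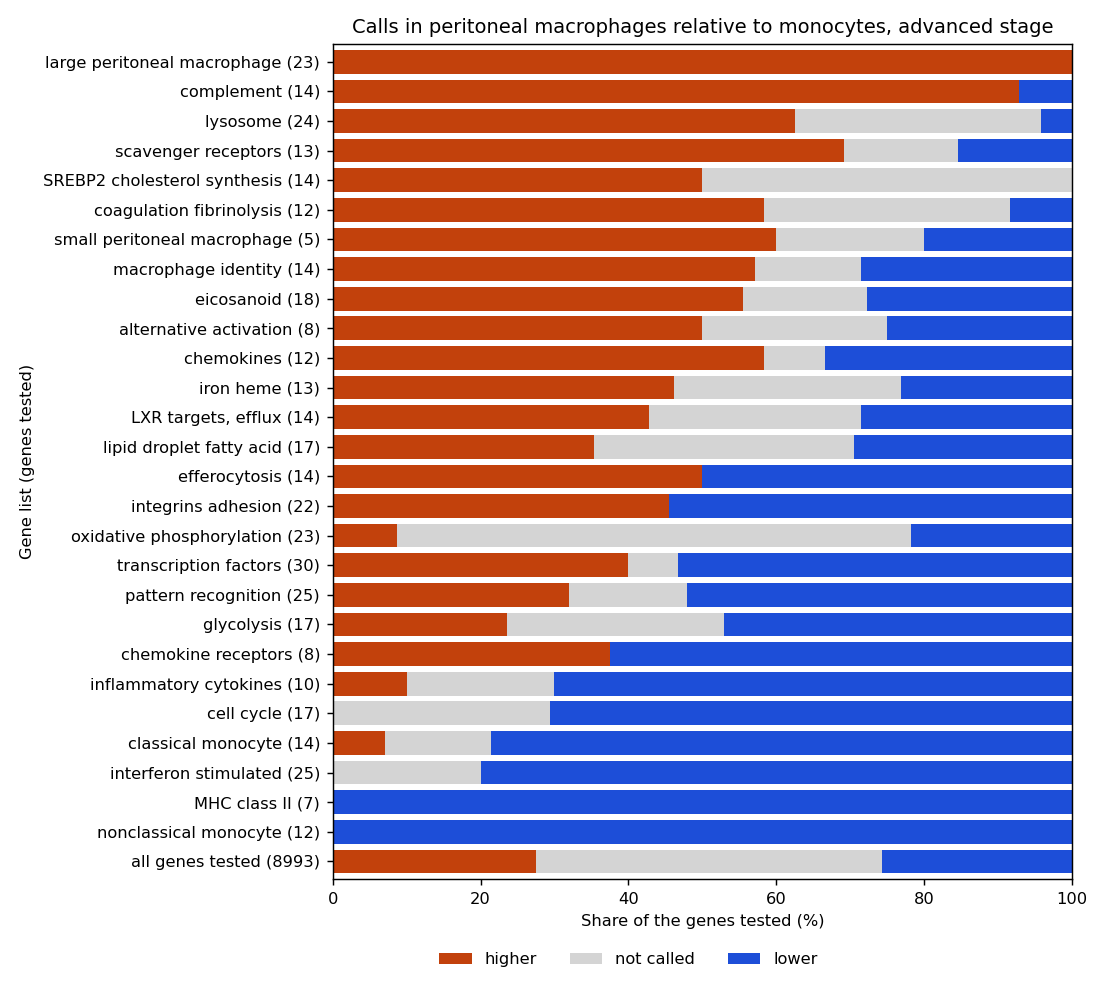
Share of the tested genes of each list that were higher in peritoneal macrophages, not called, or lower, for 27 lists and for all 8993 genes. Resident macrophage markers (23 of 23) and complement (13 of 14) are nearly all higher, nonclassical monocyte (12 of 12) and MHC class II genes (7 of 7) all lower, and oxidative phosphorylation mostly not called (16 of 23).

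Markers of other cell types moved with the comparison, and their part in it was not tested. Granule genes of neutrophils were among the genes with the largest falls. The summed level of 9 neutrophil markers was 7.71 to 22.1 CPM in peritoneal macrophages and 4753 to 39350 CPM in monocytes (exact permutation test, p = 0.0286). S100a9, a calcium-binding protein of neutrophils and also of classical monocytes, had 0, 0, 0.591 and 0 CPM in peritoneal macrophages and 2491, 4922, 15090 and 1846 CPM in monocytes (1 read against 37993; ratio 44380-fold lower, 7964 to 1753000). Ngp, neutrophilic granule protein, had 0 in peritoneal macrophages and 1198, 2414, 8235 and 911 CPM in monocytes (at least 7801-fold lower), and Ltf, lactoferrin, 0 and 490, 933, 3582 and 360 CPM (at least 3304-fold lower). Camp (at least 1133-fold lower) was also at 0 in peritoneal macrophages. In S100a9, Ngp and Ltf monocyte library 3 was the highest. Without monocyte library 3 the difference in the summed level was -8042 CPM, against -15870 CPM with it. Mpo, myeloperoxidase, which progenitors make, had 0 in peritoneal macrophages and 95.6, 100.4, 408 and 60.8 CPM in monocytes (at least 410.4-fold lower), and the summed level of 7 progenitor markers was 70.01 to 96.2 CPM in peritoneal macrophages and 133 to 818 CPM in monocytes (exact p = 0.0286). The peritoneal part of that sum was Prtn3, proteinase 3, which had 69.4, 62.3, 94.0 and 94.6 CPM in peritoneal macrophages and 41.0, 37.8, 114 and 20.5 CPM in monocytes and did not pass (0.60 ± 0.37, adjusted p = 0.192). Without monocyte library 3 it passed as higher in peritoneal macrophages (1.31, adjusted p = 0.00025), as it did with limma-voom (1.00, adjusted p = 0.0202) and with a replicate block (0.77, adjusted p = 0.0443).

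The other sums were smaller or rested on one gene. Erythroid markers summed to 0 in each peritoneal library and to 5.47 to 12.9 CPM in monocytes (exact p = 0.0286), and T and NK cell markers to 2.97 to 10.1 CPM in peritoneal macrophages and 22.5 to 40.5 CPM in monocytes (exact p = 0.0286). Platelet markers summed to 441 to 664 CPM in peritoneal macrophages and 26.8 to 116 CPM in monocytes (exact p = 0.0286), but the peritoneal sum was Pf4, with Gp9, Gp1bb and Tubb1 at 0. Markers of red pulp macrophages, which live in the spleen, summed to 1024 to 1257 CPM in peritoneal macrophages, almost all of it Cd5l, and to 153 to 253 CPM in monocytes (exact p = 0.0286). Of the 4 tested red pulp markers 1, Cd5l, was at least 4-fold higher and 3 at least 4-fold lower. The shares over all genes tested were 6.75% and 5.1%. The lower ones were Treml4 and Slc40a1, given above, and Vcam1. Vcam1 had 1 peritoneal read and 16.8, 41.5, 32.6 and 26.0 CPM in monocytes (ratio 193.9-fold lower, 34.32 to 7704). B cell markers (13.1 to 62.3 CPM in peritoneal macrophages, 11.6 to 22.4 in monocytes, p = 0.286), dendritic cell markers (22.5 to 79.8 and 57.6 to 71.0, p = 0.486), mast cell and eosinophil markers (8.87 to 69.9 and 30.1 to 233, p = 0.143) and markers of mesothelium and stroma (0 to 1.05 and 0 to 0.683, p = 0.914) did not pass the exact test. Of the mast cell and eosinophil list, the eosinophil granule genes Epx and Prg2 had 0 in each peritoneal library and 21.1, 58.0, 7.56 and 11.6 CPM (Epx) and 32.9, 105, 13.96 and 9.56 CPM (Prg2) in monocytes, at least 49.45-fold and at least 79.82-fold lower. For the dendritic cell list, all 3 tested members passed edgeR's test, 1 higher and 2 at least 4-fold lower, among them Flt3, given above. The mesothelial genes Msln and Wt1 were at 0 in all 8 libraries.

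Whether the difference between the populations had another size at the advanced stage than earlier was asked with an interaction term in a fit of 24 libraries, in which the advanced libraries enter both comparisons. Large differences at the advanced stage were in part shared with the other stages. Of 753 genes at least 4-fold higher in peritoneal macrophages at the advanced stage in that fit, 629 were so at baseline (83.5% of the advanced and 81.6% of the baseline genes), and of 643 at least 4-fold lower, 456 (70.9% and 75.0%), while 17 were called the opposite way at baseline. With the early stage 555 of the higher genes (73.7% of the advanced and 84.9% of the early genes) and 332 of the lower genes (51.6% and 77.6%) were shared. Against baseline 238 of 10343 genes (2.3%) differed in size, 63 upward (0.609%) and 175 downward (1.69%), and against the early stage 129 (1.25%), 29 upward (0.28%) and 100 downward (0.967%). Against baseline the split was 31 upward and 189 downward with library totals alone, 132 and 280 with DESeq2, and 198 and 305 with limma-voom. With 1 library left out in turn the counts ran from 69 to 276 against baseline and from 18 to 340 against the early stage. Of 24 resident macrophage markers, 1 (Saa3) differed against baseline and 0 against the early stage. Baseline libraries were sequenced several times deeper, which cannot be told apart from the stage.

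Cell cycle genes were among the downward interactions against baseline, and so was 1 of 9 neutrophil markers, S100a8, while the other 8 did not pass. S100a8 had 2.97, 4.41, 5.32 and 2.63 CPM in peritoneal macrophages and 1954, 3560, 11050 and 1307 CPM in monocytes at the advanced stage, against 1.41, 3.00, 2.00 and 0.880 CPM in peritoneal macrophages and 107, 30.5, 134 and 26.3 CPM in monocytes at baseline (interaction -4.83 ± 1.14 log2, adjusted p = 0.0247). That call ended without advanced monocyte library 3 (-3.87, adjusted p = 0.0651), with limma-voom (-4.20, adjusted p = 0.286) and with thinned counts (-5.01, adjusted p = 0.469), and in 5 other leave-one-out fits. Lcn2, a siderophore-binding granule protein, differed by -7.68 (adjusted p = 0.00678) and lost its call with limma-voom (-6.55, adjusted p = 0.112) and with thinned counts (-7.71, adjusted p = 0.124). Lrg1, a glycoprotein of neutrophils and inflamed tissue, had 240, 215, 212 and 340 CPM in peritoneal macrophages and 98.7, 4.61, 23.3 and 7.51 CPM in monocytes at the advanced stage, and 202, 263, 199 and 187 CPM in peritoneal macrophages and 0.867, 0, 0.946 and 0 CPM in monocytes at baseline (-5.77 ± 0.91, adjusted p = 0.00207). The peritoneal level of Lrg1 was similar at both stages while the monocyte level differed. Saa3, an acute-phase protein, differed by -5.66 ± 1.07 (adjusted p = 0.00775), but its advanced monocyte values were 63.3, 0.921, 0.582 and 2.05 CPM, and without the first the difference was -1.79. Mki67 had 163, 67.5, 180 and 240.3 CPM in peritoneal macrophages and 168, 53.9, 288 and 30.8 CPM in monocytes at baseline, where the groups overlapped as they did not at the advanced stage (interaction -3.48 ± 0.84, adjusted p = 0.0274). Mki67 and 12 other cell cycle genes were among the 13 of 21 with a downward interaction (median -3.16, against 0.05 over all genes), of which 2 were called without advanced monocyte library 3.

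Upward interactions were fewer. Itgb7 had 167, 329, 269 and 286 CPM in peritoneal macrophages and 137, 165, 153 and 157 CPM in monocytes at the advanced stage, against 152, 129, 177 and 124 CPM in peritoneal macrophages and 219, 232, 212 and 279 CPM in monocytes at baseline. Its interaction was 1.45 ± 0.25 (adjusted p = 0.00404), and the direction of the population difference was opposite at the 2 stages. Cxcr4 had 30.3, 12.6, 10.6 and 14.2 CPM in peritoneal macrophages at the advanced stage and 3.26, 2.19, 8.48 and 3.84 CPM in them at baseline (1.93 ± 0.46, adjusted p = 0.0249), with monocytes at 208 to 238 CPM and 165 to 325 CPM. The Cxcr4 call ended with thinned counts (1.76, adjusted p = 0.124), without advanced peritoneal library 1 (1.49, adjusted p = 0.109), without advanced monocyte library 3 (1.95, adjusted p = 0.0631) and without baseline peritoneal library 1 (1.80, adjusted p = 0.0555) or 4 (1.85, adjusted p = 0.0614). Of the 10 genes named for each interaction, 3 kept their call in every alternative against baseline (Itgb7, Lrg1 and Hist1h3c) and 1 against the early stage (Thada).

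In the comparison with the early stage, early peritoneal libraries 1 and 2 stood apart from the other early ones. They had 900.5 and 1289 CPM of Ccr2, against 53.3 and 27.1 CPM in early libraries 3 and 4 and 3.68 to 6.93 CPM in the advanced peritoneal libraries. They also had 2547 and 7712 CPM of Cd74, against 290.3 and 215 CPM in the other early libraries, and 1350 and 748 CPM of Itga6, against 3258 and 3430 CPM. Monocyte and class II genes were thus high and resident genes low in those libraries. Ccr2 had the largest downward interaction (-7.16 ± 1.11, adjusted p = 0.00582). The call count was 22 without these early libraries, in an alternative chosen after seeing the data, against 129 with them. Without early peritoneal library 2 alone the count was 19, and without library 1 alone it was 149. It rose to 324 without early peritoneal library 3 and to 340 without library 4. Libraries outside that group also lowered the count, to 18 without advanced peritoneal library 3 and to 26 without early monocyte library 2. S1pr1, a receptor for the lipid sphingosine 1-phosphate that guides lymphocyte exit, had 163, 193, 215 and 225 CPM in peritoneal macrophages and 2.48, 2.76, 1.16 and 1.37 CPM in monocytes at the advanced stage, and 125, 73.0, 196 and 193.5 CPM in peritoneal macrophages and 22.1, 49.4, 8.35 and 19.5 CPM in monocytes at the early stage (4.18 ± 0.68, adjusted p = 0.00848). Without the early libraries that stood apart, the interaction was -3.29 for Ccr2 (adjusted p = 0.00881) and 3.77 for S1pr1 (adjusted p = 0.0111), so both calls held, while limma-voom with quality weights ended both (-3.70, adjusted p = 0.128, and 3.35, adjusted p = 0.0601).

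**Figure D3:**
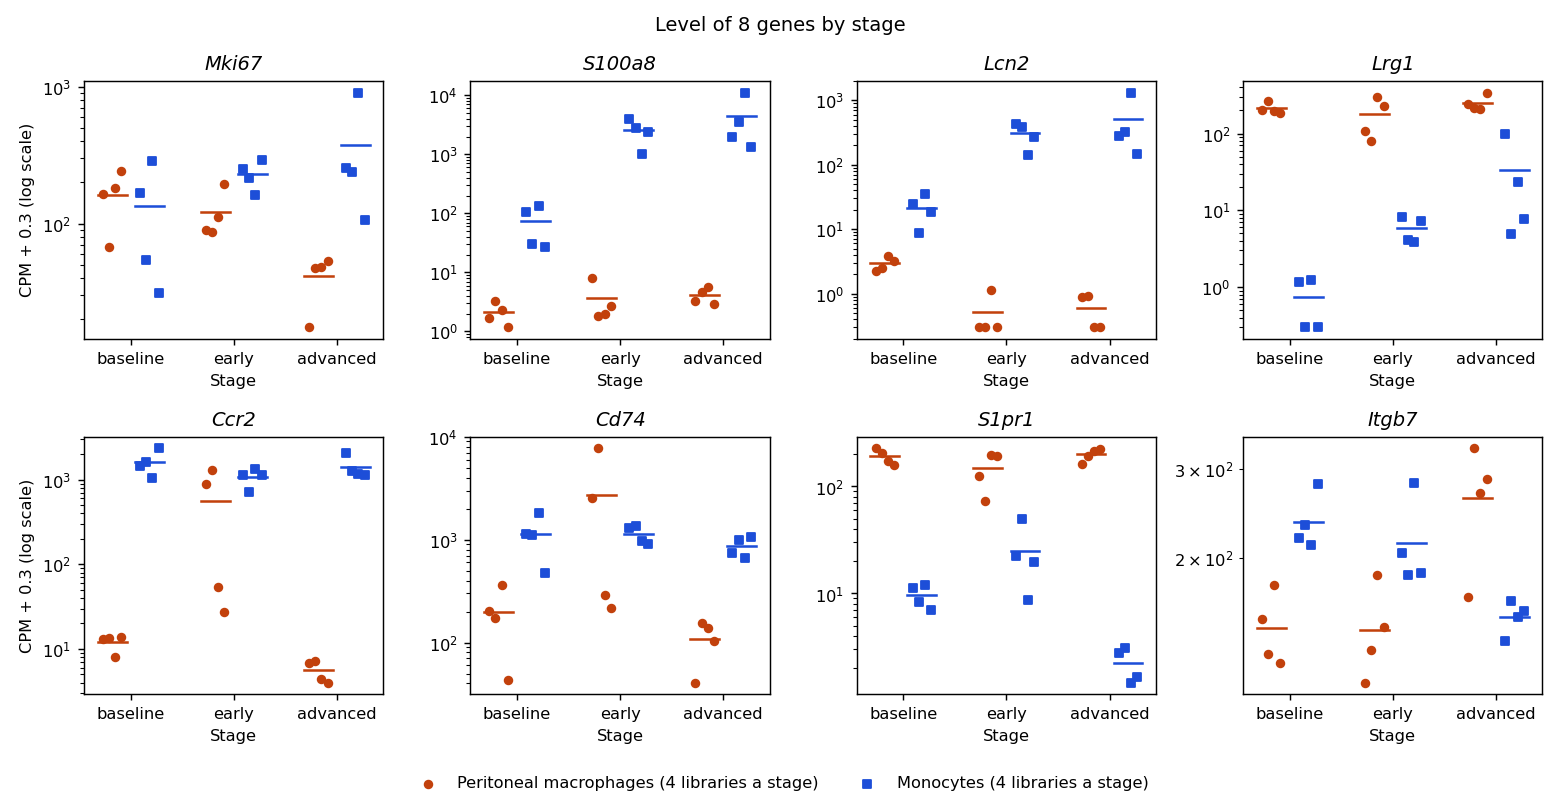
Level (CPM, log axis with an offset of 0.3) of Mki67, S100a8, Lcn2, Lrg1, Ccr2, Cd74, S1pr1 and Itgb7 in each library of peritoneal macrophages and monocytes at baseline, the early and the advanced stage, with lines at the group means. Monocyte S100a8 lies at 1307 to 11050 CPM at the advanced stage, against 26.3 to 134 CPM at baseline, and early peritoneal libraries 1 and 2 stand apart in Ccr2 and Cd74.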

How the data were processed

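RNA sequencing libraries of peritoneal macrophages and monocytes were grouped by their sample titles. Per the labels' protocols, sorted cells went into lysis buffer, RNA came off RNeasy micro columns, and Ovation SoLo libraries were read from both ends on a NextSeq500. The authors deposited raw counts, a separate table of genes for every library. STAR, featureCounts and mm10 are named in the submitters' processing notes, and their settings are not given in the sources used here. Strand use in counting is not stated either, which leaves overlapping and antisense genes uncertain, as well as near-identical pairs such as Lyz1 and Lyz2. Each file holds 24421 genes, 14863 with a count at the advanced stage, and RefSeq's GRCm38.p6 tables, the source of the promoters, hold 23204 of the symbols (24300 with synonyms). Rn45s stayed in the totals. Reads carry no molecular identifiers, so intervals (95%, exact) and the floor of 3 counts over a group cover counting error only.

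The 8 advanced libraries were compared with the quasi-likelihood test of edgeR 4.0.16 (R 4.3.3), with TMM factors, on the 8993 genes that filterByExpr kept, at a two-sided Benjamini-Hochberg adjusted p under 0.05. Standard errors are the absolute log2 fold change divided by the root of F. The biological coefficient of variation was 15.6% over the 8 libraries, 12.4% in peritoneal macrophages and 17.5% in monocytes. Interactions with stage were tested with edgeR in 24 libraries of both populations (10343 genes). Folds against a group without reads are bounds, and folds with 1 to 3 reads are ratios of summed counts scaled by library totals after TMM. Sums over markers and library measures were compared with exact permutation tests. The alternatives were RLE factors, library totals, no filter, DESeq2 1.42.0, limma-voom (3.58.1) with quality weights, a replicate block, thinning to the depth of the shallowest library, no Rn45s, the 24 libraries together, and each library left out in turn. Steps were tested on simulated counts. Members and gene lists were chosen with earlier results of these data known.

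The genes named follow a rule. In each direction it took those 10 called genes that changed most, without overlap between libraries, with a mean of at least 50 CPM in the higher group and without predicted symbols. From each list it took up to 4 called genes in each direction and up to 2 not called (all members where 8 or fewer were tested), from each interaction the 5 genes that changed most upward and the 5 most downward, and the 5 genes with the most reads in each group. Genes were dropped from the end of rankings to keep the text short. Values of some single genes are not reported here.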

Additional observations from a re-analysis of the deposited data

Results flagged for a closer look

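Single libraries stood apart from the other 3 of their group for 19 gene levels and 3 marker sums, by the gap to the nearest library over the group's range (Dixon's test at 95%). Chance marks about 1 in 20 groups in this way, and 285 groups of named genes were examined.

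Peritoneal library 1 was lowest for Mki67, at 17.2 CPM, and highest for the chemokine Ccl3 (10.1 CPM), the NF-kappaB inhibitor Nfkbia (274 CPM) and the lectin Clec10a (85.4 CPM). Peritoneal library 2 was highest for the antiviral synthetase Oas2 (204 CPM), Tgfb1 (241 CPM), Tnfaip3 (26.4 CPM) and Cd300lf (6.30 CPM) and lowest for Cycs (7.56 CPM), and its markers of mast cells and eosinophils summed to 69.9 CPM, more than in the other 3. Peritoneal library 4 was lowest for Hk2 (29.4 CPM) and Wnt2 (97.8 CPM) and highest for Pltp (829 CPM).

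Monocyte library 1 was highest for Adgre1 (225 CPM), Ccr2 (2055 CPM) and Saa3 (63.3 CPM). Monocyte library 2 was lowest for the ribosomal precursor Rn45s (56440 CPM), highest in its sum of T and NK cell markers (40.5 CPM) and lowest in its sum of markers of mesothelium and stroma, which was 0 CPM. Monocyte library 3, which had the most reads of neutrophil and progenitor genes, was highest for Chil3 (4576 CPM), Lcn2 (1316 CPM) and Mpo (408 CPM).

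The difference between peritoneal macrophages and monocytes had another size at the advanced stage than at baseline for 10 named genes, by edgeR's interaction test. The advanced minus the baseline difference was upward in log2 units for Cxcr4 (1.93, adjusted p = 0.0249), Abca6, a lipid transporter of the ABCA family (1.73, adjusted p = 0.0321), Atp2b4, a calcium pump (1.55, adjusted p = 0.0257), Itgb7 (1.45, adjusted p = 0.00404) and Slc25a37, the mitochondrial iron importer mitoferrin (1.25, adjusted p = 0.0412). It was downward for Lcn2 (-7.68, adjusted p = 0.00678), Lrg1 (-5.77, adjusted p = 0.00207), Saa3 (-5.66, adjusted p = 0.00775), S100a8 (-4.83, adjusted p = 0.0247) and the replication-dependent histone gene Hist1h3c (-4.58, adjusted p = 0.0108).

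The advanced minus the early difference was upward for S1pr1 (4.18, adjusted p = 0.00848), Ablim1, an actin-binding protein (3.39, adjusted p = 0.024), the GTPase gene Rras2 (1.81, adjusted p = 0.0262), Itgb7 (1.34, adjusted p = 0.0175) and Thada (1.32, adjusted p = 0.012), by the same test. It was downward for Ccr2 (-7.16, adjusted p = 0.00582), the pyrin gene Mefv (-5.86, adjusted p = 0.0175), Plbd1 (-5.50, adjusted p = 0.0156), the actin-severing gelsolin gene Gsn (-4.60, adjusted p = 0.0206) and Coro2a (-4.41, adjusted p = 0.0373). Without early peritoneal libraries 1 and 2 these calls held for Ccr2, S1pr1 and Thada and ended for Ablim1 (2.92), Rras2 (1.88), Itgb7 (1.14), Mefv (-1.61), Plbd1 (-1.72), Gsn (-1.30) and Coro2a (-1.72).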

How the results depend on the processing

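The count of genes called between peritoneal macrophages and monocytes held within 1.5 times under all alternatives at the same threshold: 4777 as reported, 4783 with RLE factors, 5101 with library totals, 5698 without the filter, 4961 with DESeq2, 4874 with limma-voom, 3947 with thinned counts, 4777 without Rn45s, 5057 in the fit of 24 libraries and 4438 to 4822 with 1 library left out. With at least a 4-fold change also required, the count fell to 1066. Of 225 named genes none reversed and 194 kept their call or lack of one in every alternative. Correlations of deviations were 0.046, 0.094, 0.024 and -0.094 for libraries of the same replicate number and -0.095 to 0.108 for unlike numbers. They cannot decide whether a number marks a shared mouse, since 2 cell types of a mouse need not deviate together. With a replicate block 4673 genes were called.

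The stage counts were less stable. Against baseline the count was 238, with 412 by DESeq2, 503 by limma-voom, 108 with thinned counts, 202 with the replicate block and 69 to 276 with 1 library left out. It moved by over 1.5 times without advanced monocyte library 3 (69), baseline peritoneal libraries 4 (110) and 3 (142), baseline monocyte library 2 (123) and advanced peritoneal libraries 1 (119), 2 (123), 3 (142) and 4 (145). Against the early stage the count was 129, with 381 by DESeq2, 61 by limma-voom, 71 with the replicate block, 76 with thinned counts, 22 without early peritoneal libraries 1 and 2, and 18 to 340 with 1 library left out. It moved by over 1.5 times without advanced peritoneal libraries 3 (18), 2 (31) and 4 (61), early peritoneal libraries 2 (19), 3 (324) and 4 (340), early monocyte libraries 2 (26), 4 (68) and 1 (84), and advanced monocyte libraries 3 (75), 2 (79) and 4 (83). The cause was not tested.

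With 1 library left out the summed marker levels (CPM in peritoneal macrophages minus monocytes) ran from -19570 to -8042 for neutrophils, -344.7 to -116.2 for progenitors, -23.4 to -17.4 for T and NK cells, -9.73 to -7.253 for erythroid cells, 453 to 527.3 for platelets and 867.5 to 945.3 for red pulp macrophages. Their directions held, but 3 against 4 libraries cannot go below an exact permutation p of 0.0571. Monocyte library 3 decided the size of the neutrophil and progenitor sums. Thinned to the depth of the shallowest library, the counts of calls fell to 3947, and to 108 and 76 for the stage comparisons.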

Other observations

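Within the groups some libraries were at the end of the range for many genes of a list. Peritoneal library 2 was the highest of its group for 6 of 7 B cell markers with a read, 7 of 8 T and NK cell markers and 6 of 7 markers of mast cells and eosinophils, beside 25 of 26 interferon-stimulated genes. Peritoneal library 1 was the lowest of its group for 17 of 21 cell cycle genes and 19 of 26 interferon-stimulated genes. Monocyte library 1 was the highest of its group for 6 of 6 platelet markers and 15 of 26 lysosomal genes, and monocyte library 3 for 6 of 7 progenitor markers. These counts describe single libraries and were not tested.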
